A study of Mus musculus with 28 samples.

Results

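The genes of glutamate uptake and of the glutamine cycle were followed across the cerebral cortex of knockout and control mice. The 8 members were chosen by name from 53342 gene identifiers in each table, with earlier results of these data known. They are the glutamate transporter genes Slc1a1, Slc1a2 and Slc1a3, the enzyme genes Glul and Glud1, and the glutamine transporter genes Slc38a1, Slc38a2 and Slc38a3. Glutamate released at a synapse is cleared from the extracellular space mainly by astrocytes, whose transporters carry it inward with sodium and therefore depend on the sodium gradient. Inside the astrocyte glutamate is amidated to glutamine by glutamine synthetase or oxidized through glutamate dehydrogenase. Glutamine then leaves the astrocyte and is taken up by neurons, which turn it back into glutamate or GABA.

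RNA was sequenced in 28 libraries, each from 1 mouse. Bulk RNA-Seq covered cerebral cortex at postnatal day 17 (P17) and P24, with 4 conditional knockout (cKO) and 4 control (Ctrl) mice at each age. Translating ribosome affinity purification (TRAP-Seq) covered 3 cKO and 3 Ctrl mice at P24. Every mouse gave a library of RNA from the spun-down cortex supernatant before the pull-down (Input) and a library of RNA on astrocyte ribosomes (IP). Both ages precede the paralysis of the cKO mice. The cKO mice carried the targeted gene as loxP/loxP together with mGFAP-Cre, in which the murine GFAP promoter drives the recombinase, so that deletion is limited to cells where that promoter has been active. Bulk Ctrl mice were sex-matched littermates, loxP/loxP or loxP/+, without the driver. In the TRAP mice of both genotypes the same driver switched on an EGFP/Rpl10a ribosomal protein by which ribosomes were pulled down, and the study gives the TRAP Ctrl mice as loxP/loxP or loxP/+. How the driver and the floxed alleles were combined in TRAP Ctrl mice is not given in the sources used here. The driver therefore differed between the bulk genotypes, while Ctrl IP needed it as well.

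Totals lay between 8855488 and 14575306 counts in the bulk libraries and between 18433087 and 27242445 in the TRAP libraries, and all 8 members passed the filter on low counts in every comparison. Levels are given as CPM, counts scaled to a common library size (edgeR's CPM with TMM factors) within a table. Input did not stand for bulk cortex of the same age. In Ctrl mice Slc1a2 averaged 302 CPM in Input and 2665 CPM in P24 bulk, and Slc1a3 73.2 and 326 CPM. Glud1 was closer, at 138 and 146 CPM. The cause was not tested. In both genotypes 9 of 9 astrocyte markers were higher in IP than in Input, against 35.3% of all genes in Ctrl and 27.8% in cKO mice. In both 8 of 9 neuron markers were lower, against 35.7% and 28.5% of genes. Of 3 mural markers 2 were higher in IP in Ctrl and 1 in cKO mice, and 0 were lower. No marker of any cell type was at 0 in a group, and the neuron markers summed to between 2458 and 2917 CPM in Ctrl IP and to between 2458 and 2564 CPM in cKO IP. The library of Input cKO replicate 1 stood apart across the genes and not only for several members. Its counts differed from those of Input cKO replicates 2 and 3 by a chi-square per degree of freedom of 75.1 and 78.6. Between replicates 2 and 3 that value was 8.09. Results that the library of replicate 1 moved are given with and without it.

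In IP, the astrocyte uptake transporter genes Slc1a2 and Slc1a3 and the glutamine synthetase gene Glul were lower in cKO than in Ctrl mice, with log2 fold changes of -0.71, -0.95 and -0.56. The glutamine transporter gene Slc38a1 was lower as well (-0.58), whereas Slc38a2 (0.67) and the neuronal glutamate transporter gene Slc1a1 (0.46) were higher. In P24 bulk cortex Slc1a2 (-0.41) and Slc1a3 (-0.40) were lower and the glutamate dehydrogenase gene Glud1 (0.30) was higher. No member passed the test at P17 or in Input. Glud1 and Slc38a3 did not pass in IP.

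Since the members were chosen with earlier results known, their counts are set beside the shares of all genes as a description only. Against all genes tested (edgeR quasi-likelihood test, adjusted p under 0.05), 6 of 8 members were called in IP, where 20.0% of genes were called. Of these 2 were higher, against 11.6% of all genes, and 4 were lower, against 8.42%. In P24 bulk 3 of 8 members were called, where 1.72% of genes were. Of these 1 was higher, against 1.26% of genes, and 2 were lower, against 0.462%. At P17 0 of 8 members were called by edgeR, which called 0.0943% of genes (0.0660% higher, 0.0283% lower). DESeq2 also called 0 of 8 there, and 41 genes (29 higher, 12 lower). In Input the count was 0 of 8 by edgeR, which called 0.109% of genes (0.0923% higher, 0.0168% lower). DESeq2 called 1 member there, Glud1, and 127 genes (120 higher, 7 lower). At an unadjusted p under 0.05, 3 of the 8 members passed at P17, beside 847 of 21201 genes, and 2 in Input, beside 960 of 23828 genes. The median log2 fold change of the members was -0.27 in IP and -0.07 in P24 bulk, beside -0.01 and 0.00 over all genes tested. With library size in place of TMM the median of all genes in IP moved by -0.11 and the share of higher genes among the calls went from 58.0% to 36.2%, so IP differences are relative to that scaling. Astrocyte markers summed to between 9188 and 12397 CPM in Ctrl IP and to between 8744 and 12409 CPM in cKO IP. Taken singly, 4 of these 9 markers were above 0 in IP and 5 below, with a median log2 fold change of -0.30 (-0.84 to 0.48). Of these 1 was called, and it was lower. Reactive astrocyte markers summed to between 1723 and 2045 CPM in Ctrl IP and between 3156 and 4989 CPM in cKO IP, and to between 250 and 345 CPM in Ctrl and between 806 and 1575 CPM in cKO bulk cortex at P24. Their part in the members' differences was not tested. In bulk tissue fewer cells of a type and less RNA per cell cannot be told apart.

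**Figure D1:**
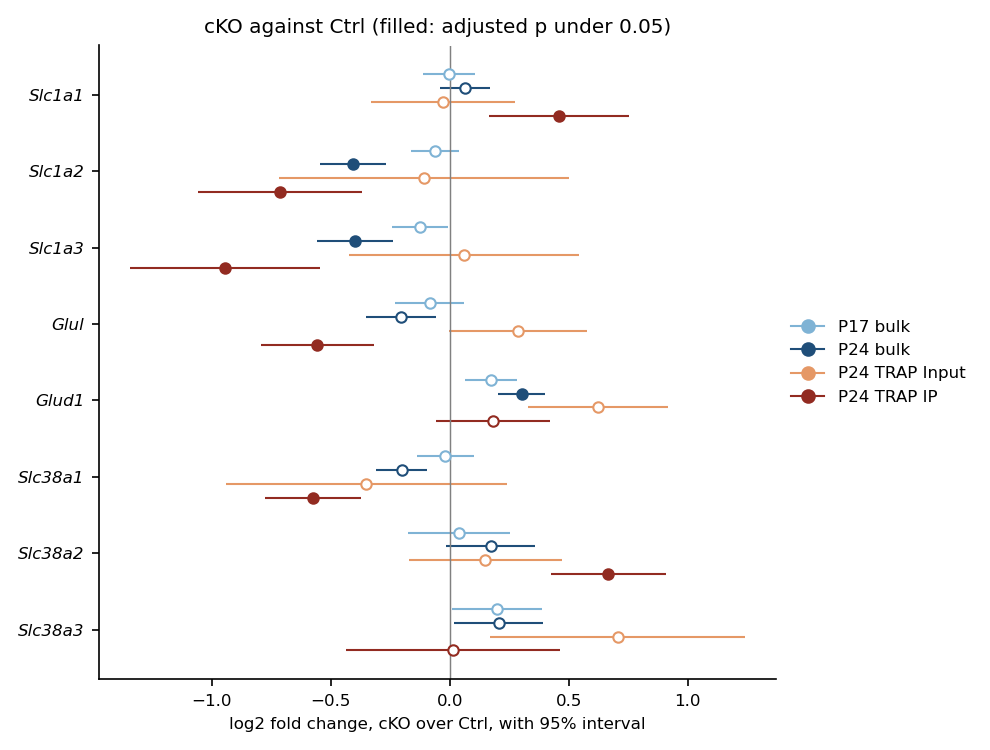
Log2 fold change of cKO over Ctrl for each member (x axis) with its 95% interval in the 4 genotype comparisons, filled where the adjusted p was under 0.05. The IP points of Slc1a2, Slc1a3, Glul and Slc38a1 lie left of 0 and those of Slc1a1 and Slc38a2 right of 0, and all 8 P17 points are open.

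Start-site sequences are shown for the members called in IP that have an entry in the RefSeq table of GRCm38.p6, to set the genes that fell beside those that rose. The table held 6 of the 8 members. Each window runs up to 250 bases upstream of the listed start on the strand of the gene, without bases that the GENCODE annotation places in an exon. Capitals mark matches, on either strand, to the motifs searched: GC box (GGGCGG), cyclic AMP response element (TGACGTCA), CCAAT box (spelled as its name), STAT motif (TTCNNNGAA), AP-1 motif (TGA and TCA with any base between them), amino acid response element (TTGCATCA) and E-box (CACGTG). The genes that fell are Slc1a3 (chr15:8710808-8711057, minus strand), Glul (chr1:153899679-153899928, plus strand) and Slc1a2 (chr2:102706188-102706355, plus strand, at a start inside the annotated gene). The genes that rose are Slc1a1 (chr19:28834885-28835048, plus strand) and Slc38a2 (chr15:96699731-96699978, minus strand). The groups follow the main test. The call of Slc1a1 was lost without certain single libraries and with library size alone, and that of Slc1a2 in a single fit, as given below.
Slc1a3: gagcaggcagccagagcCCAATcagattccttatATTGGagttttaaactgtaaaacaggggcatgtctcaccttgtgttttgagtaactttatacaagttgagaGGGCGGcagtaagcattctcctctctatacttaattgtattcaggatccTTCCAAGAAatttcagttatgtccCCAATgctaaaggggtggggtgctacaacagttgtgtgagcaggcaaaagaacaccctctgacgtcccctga
Glul: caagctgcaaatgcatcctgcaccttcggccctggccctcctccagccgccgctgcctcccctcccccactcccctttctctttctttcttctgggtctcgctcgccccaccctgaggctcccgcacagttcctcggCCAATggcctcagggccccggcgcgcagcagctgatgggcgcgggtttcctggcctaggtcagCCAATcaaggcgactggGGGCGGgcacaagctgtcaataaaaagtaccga
Slc1a2: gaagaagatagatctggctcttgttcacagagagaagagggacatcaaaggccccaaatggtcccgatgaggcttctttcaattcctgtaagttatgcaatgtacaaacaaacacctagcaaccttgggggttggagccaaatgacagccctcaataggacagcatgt
Slc1a1: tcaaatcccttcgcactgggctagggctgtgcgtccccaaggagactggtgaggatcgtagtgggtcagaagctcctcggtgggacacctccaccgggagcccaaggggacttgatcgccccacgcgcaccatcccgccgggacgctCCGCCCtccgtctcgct
Slc38a2: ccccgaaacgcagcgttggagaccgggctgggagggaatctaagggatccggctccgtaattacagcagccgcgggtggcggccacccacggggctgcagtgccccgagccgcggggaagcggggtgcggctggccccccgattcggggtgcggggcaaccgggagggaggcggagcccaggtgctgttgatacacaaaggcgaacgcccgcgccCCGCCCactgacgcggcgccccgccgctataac

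The Slc1a3 window held 1 STAT motif, which begins 96 bases upstream of the start, together with 3 CCAAT boxes and 1 GC box. The Glul window held 2 CCAAT boxes, 113 and 50 bases upstream, and 1 GC box. Slc1a1 and Slc38a2 held 1 GC box each, and the Slc1a2 window held none of the motifs searched. Among 32851 RefSeq windows, 7.02% held the STAT motif, 33.8% a CCAAT box and 32.7% a GC box. The cyclic AMP response element (1.55%), the AP-1 motif (6.75%), the amino acid response element (0.791%) and the E-box (6.02%) matched in none of the windows shown. A match is a description of the letters only.

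Slc1a2 encodes GLT-1, the main glutamate transporter of cortical astrocytes, and lies on chromosome 2 from 102658659 to 102790784 (GRCm38, plus strand). At P24 in bulk cortex its level was 2428, 3030, 2659 and 2543 CPM in the Ctrl mice and 2195, 1942, 1916 and 1988 CPM in the cKO mice. All cKO mice were below all Ctrl mice. The log2 fold change was -0.41 ± 0.06 (SE, n = 4 mice per group; adjusted p = 0.00659), which is 0.754 of the Ctrl level. Of all genes tested in this comparison 7.66% had groups that did not overlap.

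At P17 Slc1a2 measured 3310, 3290, 3023 and 2973 CPM in Ctrl and 3221, 2912, 3124 and 2820 CPM in cKO mice, and the groups overlapped. The P17 difference was -0.06 on the log2 scale, with an interval from -0.16 to 0.04. The change between the ages in the genotype difference was -0.35 ± 0.08 (SE), with an adjusted p of 0.27 over the 23395 genes of the interaction, in which 0.0470% of genes (0.0342% higher, 0.0128% lower) and none of the members were called. Without P24 cKO replicate 1, the highest of the cKO mice, it was -0.39 with an adjusted p of 0.0345. That library stood apart across the genes. Its counts differed from those of P24 cKO replicates 2, 3 and 4 by a chi-square per degree of freedom of 11.4, 14.0 and 12.4. Between replicates 2, 3 and 4 that value was 3.20 to 4.77. Without the library 950 genes were called in P24 bulk, beside 388 with it, and 3 members in either case.

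On astrocyte ribosomes Slc1a2 stood at 1549, 2232 and 2074 CPM in Ctrl IP and at 1032, 1104 and 1415 CPM in cKO IP. The groups did not overlap, as for 37.7% of genes in that comparison, although the highest cKO mouse and the lowest Ctrl mouse were close. The difference was -0.71 ± 0.16 (SE, n = 3 mice per group; adjusted p = 0.00927). In a single fit of all TRAP libraries its adjusted p was 0.0914. In Input the level was 269, 317 and 320 CPM in Ctrl and 161, 340 and 339 CPM in cKO mice. Replicate 1 alone was low there. The Input difference was -0.11 with all mice and 0.17 without that library, and neither passed (adjusted p = 0.924 and 0.999).

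Slc1a3 encodes GLAST, the other astrocyte glutamate transporter, on chromosome 15 from 8634124 to 8710764 (minus strand). Its P24 bulk level was 316, 345, 305 and 337 CPM in Ctrl and 280, 215, 249 and 244 CPM in cKO mice, with no overlap. The log2 fold change was -0.40 ± 0.07 (SE, n = 4; adjusted p = 0.0166). This call was lost when any of 4 mice was left out. The adjusted p was 0.0616 without Ctrl replicate 2, 0.0534 without Ctrl replicate 4, 0.055 without cKO replicate 3 and 0.0646 without cKO replicate 4. At P17 the level was 367, 418, 361 and 403 CPM in Ctrl and 340, 366, 350 and 363 CPM in cKO mice, and the difference of -0.12 did not pass (interval -0.24 to -0.01, adjusted p = 1).

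Of the 8 members in the 4 genotype comparisons, the largest difference was that of Slc1a3 in IP. Ctrl mice had 879, 1217 and 1307 CPM and cKO mice 482, 532 and 742 CPM, so that the groups stood apart. The cKO level was 0.519 of the Ctrl level (log2 fold change -0.95 ± 0.18, SE, n = 3; adjusted p = 0.00488). It kept its call without any single library, with values from -1.16 to -0.80. In Input Slc1a3 stood at 62.8, 73.8 and 83.0 CPM in Ctrl and at 54.3, 85.8 and 88.3 CPM in cKO mice, with a difference of 0.06 (interval -0.42 to 0.54), or 0.25 (adjusted p = 0.961) without cKO replicate 1.

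Slc1a1 encodes EAAC1, the glutamate transporter of neurons, on chromosome 19 from 28835049 to 28913960 (plus strand). In bulk cortex it was between 177 and 194 CPM in Ctrl and between 187 and 198 CPM in cKO mice at P24, with a difference of 0.06 (interval -0.04 to 0.17). At P17 it was between 207 and 228 CPM in Ctrl and between 209 and 224 CPM in cKO mice. In IP it measured 55.9, 47.6 and 45.7 CPM in Ctrl and 65.2, 81.8 and 57.1 CPM in cKO mice. The nearest Ctrl and cKO mice were almost level, and the rise of 0.46 ± 0.13 (SE, n = 3; adjusted p = 0.0328) was lost without cKO replicate 2 (0.32, adjusted p = 0.126), without Ctrl replicate 2 (0.43, adjusted p = 0.104) and without Ctrl replicate 3 (0.40, adjusted p = 0.111). It was also lost with library size alone (0.34, adjusted p = 0.077) and in a single fit of all TRAP libraries (0.45, adjusted p = 0.0696). A gene on the opposite strand, 4430402I18Rik, shares 2631 exonic bases with Slc1a1 and had between 42.5% and 118% of its counts in TRAP libraries. The strand setting of the counting is not given, so reads of the pair cannot be told apart.

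Glul encodes glutamine synthetase, an enzyme used as an astrocyte marker, on chromosome 1 from 153899944 to 153909723 (plus strand). It was the most abundant member in IP, with 7659, 7928 and 8970 CPM in Ctrl and 5251, 5185 and 6167 CPM in cKO mice. Every cKO mouse was below every Ctrl mouse. The cKO level was 0.68 of the Ctrl level (log2 fold change -0.56 ± 0.11, SE, n = 3; adjusted p = 0.0051). In P24 bulk Glul was 1065, 903, 989 and 1025 CPM in Ctrl and 872, 848, 965 and 769 CPM in cKO mice, with overlap, and the difference of -0.21 (interval -0.35 to -0.06) had an adjusted p of 0.192.

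In Input the Glul groups stood apart in the other direction, as for 11.9% of genes. The Ctrl mice had 725, 758 and 719 CPM and the cKO mice 853, 986 and 841 CPM. The difference of 0.29 ± 0.13 (SE) had an adjusted p of 0.812. At P17 the difference was -0.08 (adjusted p = 1), between means of 946 ± 102 CPM in Ctrl and 892 ± 38.9 CPM in cKO mice (SD, n = 4). The processed pseudogene Glns-ps1 had between 12.3% and 12.8% of the Glul counts in 11 of 12 TRAP libraries and 8.85% in Input cKO replicate 1, so part of the reads may have been split between the copies.

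Glud1 encodes glutamate dehydrogenase, which turns glutamate into a TCA cycle intermediate, on chromosome 14 from 34310727 to 34345265 (plus strand). It was the member that rose in P24 bulk cortex. Ctrl mice had 146, 144, 146 and 148 CPM and cKO mice 176, 184, 186 and 175 CPM. The 4 Ctrl mice were nearly equal and all cKO mice lay above them. The log2 fold change was 0.30 ± 0.04 (SE, n = 4; adjusted p = 0.00448), or 1.23-fold, and stayed between 0.29 and 0.31 when any mouse was left out.

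At P17 Glud1 was 149, 154, 151 and 150 CPM in Ctrl and 168, 166, 175 and 172 CPM in cKO mice. The groups did not overlap, as for 2.83% of genes, but the difference of 0.17 ± 0.05 (SE) had an adjusted p of 0.688. In Input it stood at 134, 140 and 141 CPM in Ctrl and at 209, 222 and 207 CPM in cKO mice, again apart. The Input difference was 0.62 ± 0.13 (SE, n = 3), with an adjusted p of 0.275 over all mice and 0.0224 without cKO replicate 1, whose own Glud1 level lay between those of the other cKO mice. In IP it measured 741, 800 and 818 CPM in Ctrl and 788, 884 and 992 CPM in cKO mice. These groups overlapped and the difference of 0.18 (interval -0.06 to 0.42) had an adjusted p of 0.27. Summed astrocyte markers were also higher in cKO Input, at 1422 to 1554 CPM against 745 to 899 CPM in Ctrl Input, and in cKO P24 bulk, at 2102 to 2260 CPM against 1862 to 2014 CPM. Taken singly, 8 of the 9 markers were above 0 in Input and 1 below (median 0.77). In P24 bulk 7 were above 0 and 2 below (median 0.09, -0.41 to 1.25). There 3 markers were called higher and 1 lower, against 1.26% and 0.462% of genes. Their part in the Glud1 and Glul differences was not tested.

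Slc38a3 encodes SNAT3, a transporter through which astrocytes release glutamine, on chromosome 9 from 107650634 to 107669530 (minus strand). In IP it measured 67.1, 91.8 and 84.6 CPM in Ctrl and 56.1, 79.0 and 109 CPM in cKO mice. The cKO mice spanned the whole Ctrl range, and the difference of 0.01 (interval -0.44 to 0.46, adjusted p = 0.974) changed sign with library size alone (-0.10). In Input it was 10.3, 12.4 and 10.4 CPM in Ctrl and 12.1, 22.5 and 19.3 CPM in cKO mice. That difference was 0.71 ± 0.24 (SE; adjusted p = 0.812) over all mice and 0.92 (adjusted p = 0.0232) without cKO replicate 1, the lowest of its group. In bulk the difference was 0.20 at both ages, with an adjusted p of 0.33 at P24 and 1 at P17.

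Slc38a1 encodes SNAT1, a glutamine importer found mainly in neurons, on chromosome 15 from 96571418 to 96642913 (minus strand). In IP it was 48.4, 49.8 and 49.4 CPM in Ctrl and 34.8, 32.7 and 30.9 CPM in cKO mice. Both groups were tight and far apart. The log2 fold change was -0.58 ± 0.09 (SE, n = 3; adjusted p = 0.00197), though with 1 fit of all TRAP libraries its adjusted p was 0.111. In Input it stood at 93.1, 97.4 and 86.5 CPM in Ctrl and at 42.7, 90.6 and 83.5 CPM in cKO mice. The low value is that of cKO replicate 1, and the difference of -0.35 (interval -0.94 to 0.24) became -0.08 without it.

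In P24 bulk Slc38a1 was 153, 145, 155 and 165 CPM in Ctrl and 134, 135, 135 and 133 CPM in cKO mice. The groups did not overlap. The difference of -0.20 ± 0.05 (SE) had an adjusted p of 0.0717 with edgeR and 0.00504 with DESeq2. At P17 the means were 124 ± 4.1 CPM in Ctrl and 123 ± 3.58 CPM in cKO mice (SD, n = 4), with a difference of -0.02 (interval -0.14 to 0.10). The 9 neuron markers had log2 fold changes from -0.58 to 0.26 in IP, with a median of -0.17. Of these 3 were above 0 and 6 below, and 2 passed the test, Tubb3 (-0.58) and Syp (-0.43), where 8.42% of all genes were lower. Their part in the Slc38a1 difference was not tested.

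Slc38a2 encodes SNAT2, a glutamine and small amino acid importer that responds to amino acid supply, on chromosome 15 from 96687392 to 96699730 (minus strand). In IP it rose from 23.1, 27.8 and 25.3 CPM in Ctrl to 43.8, 37.3 and 39.3 CPM in cKO mice. All cKO mice were above all Ctrl mice. The rise was 1.59-fold (log2 fold change 0.67 ± 0.11, SE, n = 3; adjusted p = 0.00229) and passed without any single library. In Ctrl mice Slc38a2 was lower in IP than in Input (log2 fold change -0.60), and the part of other cells in its IP rise was not tested. The interaction of fraction and genotype was 0.51 ± 0.17 (SE) and did not pass (adjusted p = 0.374). In Input the level was 34.9, 40.7 and 39.1 CPM in Ctrl and 39.0, 44.5 and 43.5 CPM in cKO mice, a difference of 0.15 (interval -0.17 to 0.47). The P24 bulk difference was 0.17 (interval -0.01 to 0.36, adjusted p = 0.425), and at P17 it was 0.04.

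**Figure D2:**
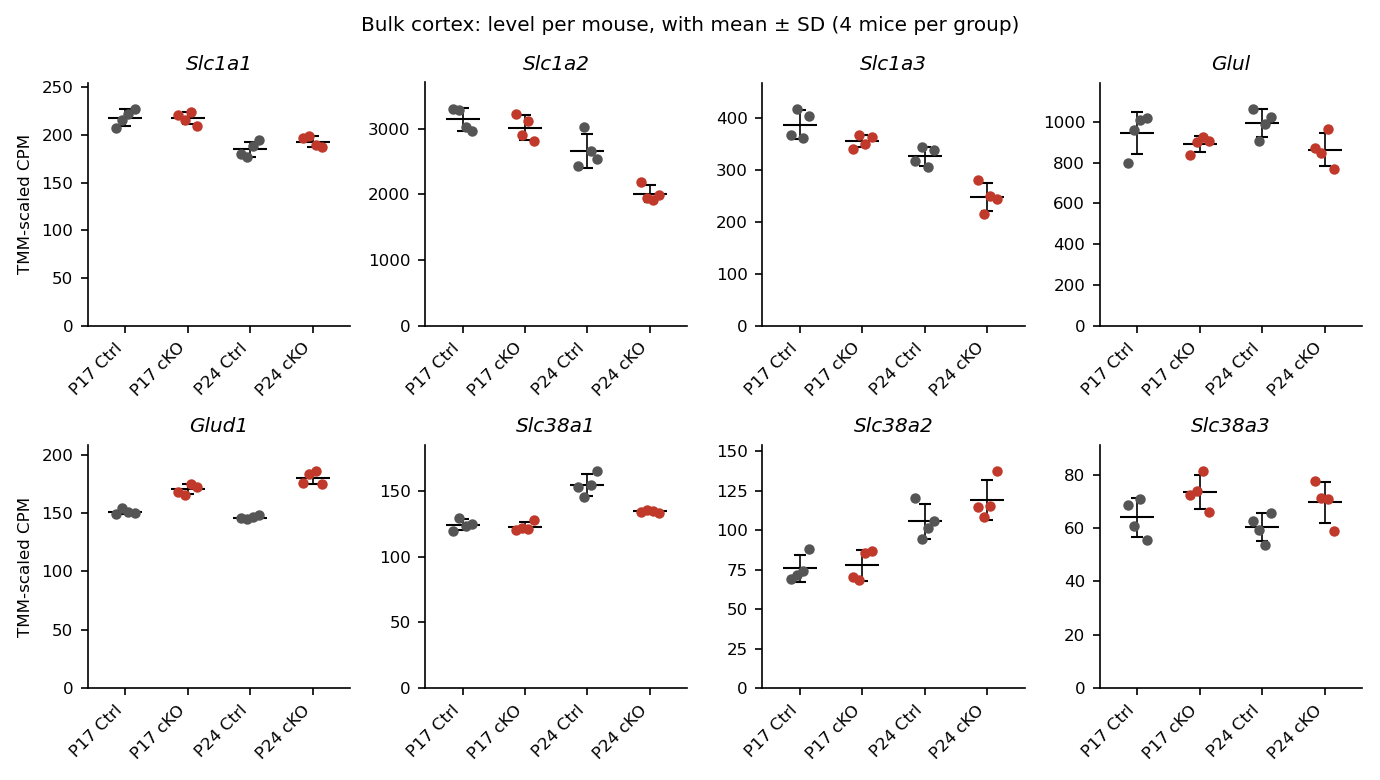
TMM-scaled CPM of each member in bulk cortex (y axis, from 0), with a point for each mouse and bars for the mean ± SD of 4 mice per group. At P24 the cKO points of Slc1a2 and Slc1a3 lie below all Ctrl points and those of Glud1 above them.

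**Figure D3:**
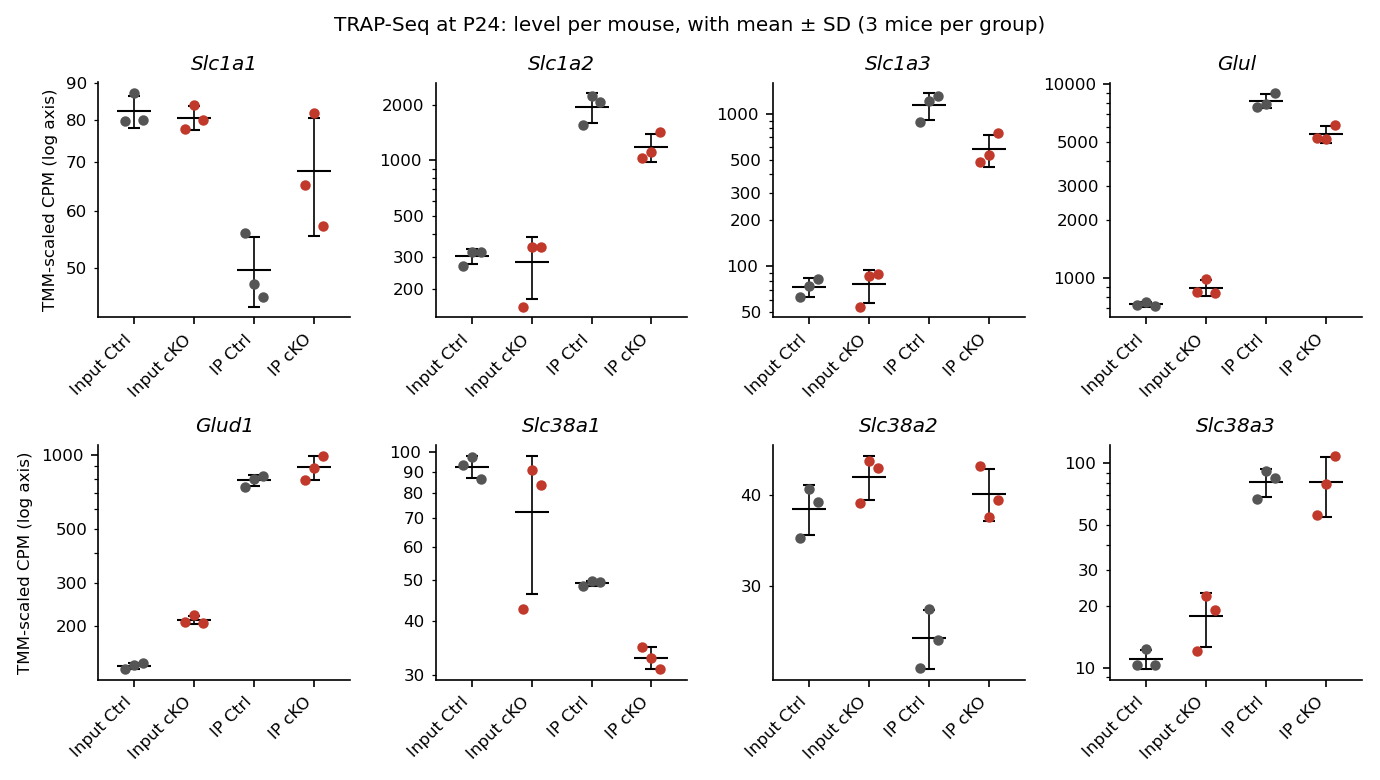
TMM-scaled CPM of each member in the TRAP-Seq libraries (y axis, log scale), with a point for each mouse and bars for the mean ± SD of 3 mice per group. In Input cKO, 1 mouse lies below the other mice for Slc1a2 (161 CPM), Slc1a3 (54.3 CPM) and Slc38a1 (42.7 CPM).

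In Ctrl mice 5 of 8 were higher in IP than in Input, against 35.3% of all genes, and 3 of 8 were lower, against 35.7%, with 71.0% of genes called in either direction. Slc1a3 was enriched most (log2 fold change 3.95 ± 0.17, SE, n = 3), followed by Glul (3.47 ± 0.11), Slc38a3 (2.87 ± 0.15), Slc1a2 (2.68 ± 0.14) and Glud1 (2.50 ± 0.09). The 3 that were depleted were Slc38a1 (-0.92 ± 0.10), Slc1a1 (-0.74 ± 0.10) and Slc38a2 (-0.60 ± 0.11). IP and Input groups of every member stood apart, as for 74.4% of genes.

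In cKO mice 56.3% of genes differed between IP and Input, and 6 of 8 members were called, 5 higher (27.8% of genes) and 1 lower (28.5%). The enriched genes were again Slc1a3 (2.92), Glul (2.62), Slc38a3 (2.16), Slc1a2 (2.06) and Glud1 (2.05), and the depleted gene was Slc38a1 (-1.16, adjusted p = 0.00616). Slc1a1 (-0.26, interval -0.64 to 0.12, adjusted p = 0.219) and Slc38a2 (-0.09, interval -0.42 to 0.23, adjusted p = 0.603) did not pass. The groups of 6 of 8 members stood apart, as for 63.9% of genes. Without Input cKO replicate 1 the number of genes called went from 13526 to 16818 and the same number of members was called, with Slc1a3 at 2.74, Slc1a2 at 1.79, Slc38a3 at 1.95 and Slc38a1 at -1.42. The median log2 fold change of the members was 2.59 in Ctrl and 2.05 in cKO mice, beside -0.03 and -0.02 over all genes. For the 9 astrocyte markers the median was 3.72 in Ctrl and 2.78 in cKO mice. Whether the genotype difference itself differed between IP and Input was tested as an interaction, in which 0.0582% of 25768 genes (0.0388% higher, 0.0194% lower) and none of the members were called. This fit, like those of IP against Input, did not pair the IP and Input libraries of a mouse. Pairing them with a block changed no member's call.

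The largest interaction terms among the members were those of Slc1a3 (-1.01 ± 0.31, SE; adjusted p = 0.285), Glul (-0.85 ± 0.17; adjusted p = 0.102), Slc38a3 (-0.70 ± 0.35; adjusted p = 0.599) and Slc1a2 (-0.61 ± 0.34; adjusted p = 0.655). All 9 astrocyte markers also had terms below 0, from -1.11 to -0.66 with a median of -0.82, and 0 were called. Their part in the members' terms was not tested. Without Input cKO replicate 1 the number of genes called in the interaction went from 15 to 432. Glul (-0.88, adjusted p = 0.0137), Slc1a3 (-1.21, adjusted p = 0.0304) and Slc1a2 (-0.89, adjusted p = 0.0497) were then among them.

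**Figure D4:**
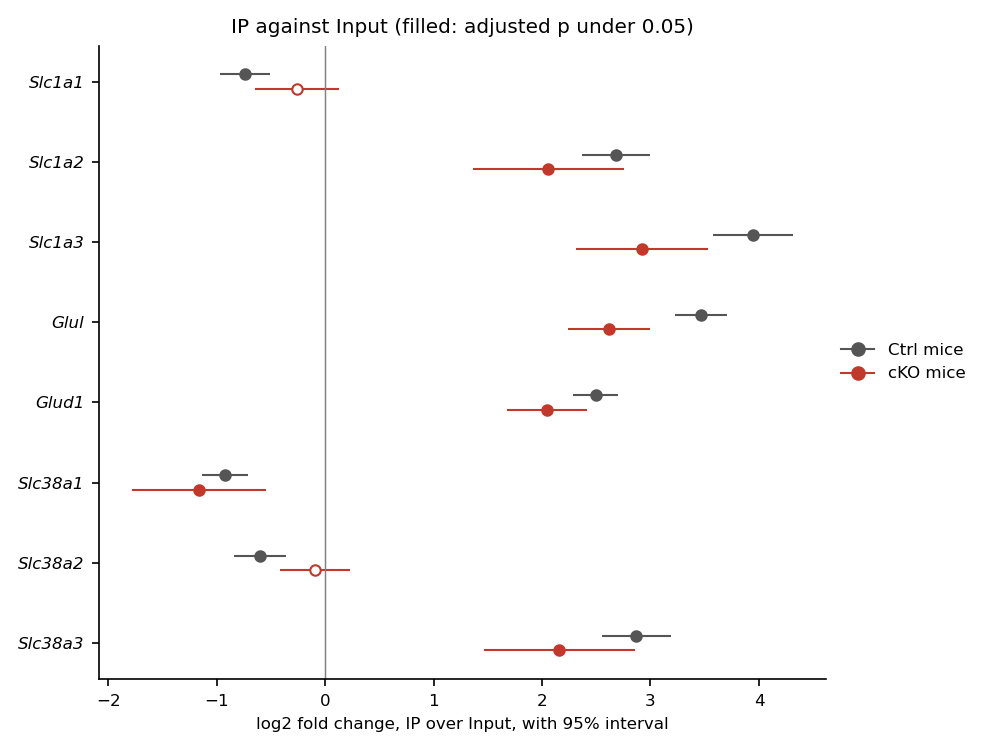
Log2 fold change of IP over Input for each member (x axis) with its 95% interval, in Ctrl and in cKO mice (n = 3 each), filled where the adjusted p was under 0.05. Slc1a2, Slc1a3, Glul, Glud1 and Slc38a3 lie right of 0 in both genotypes, and the cKO points of Slc1a1 and Slc38a2 are open.

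Set beside each other per length, as CPM per kb of annotated exon, the order of the members depended on the length used, and Glul led with either in the groups given here. In P24 Ctrl bulk cortex Glul (299.7) led Slc1a2 (203), Slc1a3 (38.2), Glud1 (34.7) and Slc1a1 (22.4). Slc38a2 (11.9) and Slc38a3 (11.4) overlapped, and Slc38a1 (8.96) came last. In cKO bulk cortex of the same age Glud1 (42.8) stood above Slc1a3 (28.9) without overlap, an order that turned per kb of the longest transcript (53.1 against 55.7). In Ctrl IP the level of Glul was 2463, that of Glud1 187 and that of Slc38a3 15.4, while Slc1a2 (149) and Slc1a3 (133) overlapped and so did Slc38a2 (2.87) and Slc38a1 (2.85). In cKO IP Slc38a2 (4.54) stood above Slc38a1 (1.90) without overlap.

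Other genes of glutamate and glutamine handling were counted from a list of 28. In IP 26 were tested, of which 4 were called, where 20.0% of all genes were. Of these 2 were higher in cKO mice (11.6% of genes) and 2 were lower (8.42%). The aminotransferase gene Gpt (0.69, adjusted p = 0.013) and Aldh18a1 (0.44, adjusted p = 0.00807), the first enzyme from glutamate to proline, rose. The mitochondrial alanine aminotransferase gene Gpt2 (-0.93, adjusted p = 0.000543) and Slc25a12 (-0.38, adjusted p = 0.038), a mitochondrial aspartate and glutamate carrier, fell. The median log2 fold change of the list was 0.15 in IP, beside -0.01 over all genes.

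In P24 bulk 27 of the list were tested and 3 were called, where 1.72% of genes were. All were higher: Gpt (0.96, adjusted p = 0.00793), Slc3a2 (0.39, adjusted p = 0.00856), the heavy chain of several amino acid exchangers, and the neutral amino acid transporter gene Slc1a4 (0.34, adjusted p = 0.0404). At P17, where 0.0943% of genes were called, Gpt alone of 27 was (0.88, adjusted p = 0.0245). It had 6.40 to 8.75 CPM in Ctrl and 11.6 to 15.9 CPM in cKO mice. In Input none of 26 was called, where 0.109% of genes were, and Gpt measured 3.46 to 4.73 CPM in Ctrl and 7.74 to 10.2 CPM in cKO mice. The list holds the vesicular glutamate transporter genes Slc17a6, Slc17a7 and Slc17a8 and the receptor genes Grm3 and Grm5, none of which was called between genotypes.

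Between IP and Input of Ctrl mice 10 of 26 listed genes were higher (35.3% of all genes) and 13 were lower (35.7%). The largest differences were those of Slc25a18 (3.92), a mitochondrial glutamate carrier, Slc17a7 (-2.78), which loads glutamate into vesicles, Gpt (2.74), the ornithine aminotransferase gene Oat (2.45), the metabotropic receptor gene Grm3 (2.37) and Got2 (-1.92), the mitochondrial aspartate aminotransferase. In cKO mice 9 were higher (27.8%) and 12 lower (28.5%), and 0 of the list were called in either interaction.

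For each member the genes with the most similar pattern over the 28 libraries were found, by the root-mean-square difference of log2 levels centred within each table, among 10694 genes. Slc1a2 was nearest to the sodium bicarbonate cotransporter gene Slc4a4 (0.116) and to Sfxn5 (0.14), against its own spread of 0.841. The nearest to Slc1a3 were the connexin gene Gjb6 (0.14) and the zinc transporter gene Slc39a12 (0.141), and the nearest to Slc38a3 were Tril (0.146), Mfsd2a (0.148) and Axl (0.162). Glul and Glud1 were nearest to their own pseudogenes, Glns-ps1 (0.0957) and Glud-ps (0.11), then to Ndrg2 (0.122) and Id4 (0.138) and to Idh1 (0.12) and Dazap2 (0.13). The third of Slc1a2, Gm13872 (0.157), is an antisense gene that shares 189 exonic bases with it, and the third of Slc1a3 was Lcat (0.182).

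Members with small spread had less distinct neighbours. Slc1a1 (spread 0.212) was nearest to Zdhhc3 (0.0916), Atp6v0e2 (0.0997) and Leprotl1 (0.104), and Slc38a2 (spread 0.228) to Acsl5 (0.121), Pgam1-ps1 (0.126) and Ndfip1 (0.14). Slc38a1 (spread 0.4) was nearest to Gpatch8 (0.107) and Ptpn11 (0.111). The points of these patterns share libraries, depth and the step from Input to IP.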

How the data were processed

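RNA was sequenced from cerebral cortex of cKO and Ctrl mice (bulk at P17 and P24, TRAP-Seq Input and IP at P24). The authors aligned reads with STAR to mm10 and deposited raw counts per Ensembl gene, not normalized, in 3 tables. How reads were counted, including strand and annotation, is not given in the sources used here. Symbols, positions and exonic lengths came from GENCODE M21 (53236 of 53342 identifiers matched), and promoters from RefSeq. The age of a bulk table is in its name only. Samples were grouped by the labels.

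Genotypes were compared on these counts by edgeR 4.0.16 (R 4.3.3): TMM factors, filterByExpr (minimum count 10, total 15, proportion 70%), and the two-sided quasi-likelihood test with Benjamini-Hochberg adjustment over all genes tested and a threshold of 0.05. SE is the absolute log2 fold change divided by the square root of F, and intervals are 95%. DESeq2 1.42.0, other scalings and filters, an exact test, a single fit, the replicate block and leaving out each library were alternatives. Scripts were tested on simulated data. Same-numbered P17 libraries deviated together (correlations of 0.167 to 0.38), whereas not every P24, IP or Input pair did, and IP and Input of a number are the same mouse. Replicate pairs differed beyond sampling noise (chi-square per degree of freedom from 2.59 to 78.6, the largest between Input cKO replicates 1 and 3). A count of 0 would allow 3 counts, or 0.106 to 0.341 CPM, for counting error only. Genes named are the members, the up to 6 most changed called genes of the pathway list per comparison, the 3 nearest patterns per member, and markers. The members and lists were chosen with earlier results of these data known. The targeted gene and some other genes are not reported here.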

Additional observations from a re-analysis of the deposited data

How the results depend on the processing

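Of the members' calls between genotypes, those of Slc1a2 and Glud1 in P24 bulk and of Slc1a3, Glul and Slc38a2 in IP held in every alternative run. The cause of the changes below was not tested. Genes called without a filter, with DESeq2 and with the exact test were 618, 604 and 608 in P24 bulk (main 388), 55, 41 and 56 at P17 (20), and 112, 127 and 136 in Input (26), where the stricter filter gave 15 and a single fit 127. In Input 1 member, Glud1, was called with DESeq2, the exact test and the single fit. A single fit called 1684 genes and 3 members in IP (4782 and 6). Without a filter and with DESeq2 the age interaction called 62 and 54 genes (11) and the fraction interaction 189 and 287 (15). No filter added 1 member to each, Slc1a2 and Slc1a3, and DESeq2 added 1 to the latter, Glul. Of its calls 66.7% were higher, 41.7% with library size alone and 50% with RLE factors. In IP, Slc38a3 changed to -0.10 with library size.

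With the replicate block 109 genes were called at P17, 8 in Input, 55 in the age interaction and 6 in the fraction interaction. Slc38a3 changed sign in IP (-0.026) and in the age interaction (-0.000804). The block changed no member's call.

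Leaving out 1 library gave 216 to 950 genes in P24 bulk (950 without cKO replicate 1), 11 to 19 at P17, 2633 to 4810 in IP, 4 to 112 in Input (112 without cKO replicate 1), 4 to 149 in the age interaction (149 without P24 cKO replicate 1) and 3 to 432 in the fraction interaction. Members called ranged from 2 to 3, 0 to 0, 5 to 6, 0 to 2, 0 to 1 and 0 to 3 in that order. Signs changed for log2 fold changes near 0: at P17 Slc1a1 (-0.029 to 0.017), Slc38a1 (-0.0395 to 0.0025) and Slc38a2 (-0.0197 to 0.116), in IP Slc38a3 (-0.263 to 0.248), in Input Slc1a1 (-0.054 to 0.017), Slc1a2 (-0.272 to 0.171) and Slc1a3 (-0.066 to 0.254), and in the age interaction Slc38a3 (-0.054 to 0.076).

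Per kb of the longest transcript, the levels in P24 Ctrl bulk were 356.6 (Glul), 229.8 (Slc1a2), 73.5 (Slc1a3), 48.6 (Slc1a1), 43.1 (Glud1), 21.3 (Slc38a1), 19.2 (Slc38a3) and 17.3 (Slc38a2), and in Ctrl IP 2932 (Glul), 256 (Slc1a3), 232 (Glud1), 25.8 (Slc38a3), 13.1 (Slc1a1), 6.77 (Slc38a1) and 4.15 (Slc38a2), beside 168 (Slc1a2). On this scale the order changed among upper and lower members: Slc1a1 passed Glud1 and Slc38a1 passed Slc38a3 and Slc38a2 in P24 Ctrl bulk, and Slc1a3 passed Glud1 and Slc1a2 in Ctrl IP. In P24 cKO bulk Slc1a3 (55.7) stood above Glud1 (53.1). Glul led on both scales in these groups.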
